A study of Mus musculus with 18 samples.

Results

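The genes described here take part in the handling of fatty acids and other lipids at endothelial cells, the lining of blood vessels. They are the 8 genes Mfsd2a, Pltp, Lrp8, Gpihbp1, Lpl, Cd36, Fabp4 and Fabp5, chosen by name for their role, with earlier results of these data known. The study's tables list 14068 genes in at least 1 tissue and 10505 in every tissue. All 8 members were analysed in choroid, 7 in retina (without Gpihbp1) and 6 in brain (without Gpihbp1 and Fabp4), and 6 in all 3 tissues.

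The study compared the RNA that endothelial cells translate in 3 vascular beds of the mouse. Every library came from animals of the genotype Tie2-cre+; NuTRAP+ per the labels, inputs included, since the comparison is between fractions of a tissue and between tissues, while the column headers of the tables read WT for every library. Cre recombination switches on the NuTRAP allele, which tags ribosomes with GFP. The Tie2 promoter drives Cre in endothelium, and it is active in the blood lineage too. The groups were the positive fractions (RNA pulled down with an antibody to GFP) and the inputs (part of the same cleared lysate) of choroid, of retina and of brain, which makes 6 groups of 3 libraries numbered 421, 953 and 960. Retina and choroid samples pooled the tissue of 2 eyes, the choroid was scraped off together with retinal pigment epithelium (RPE), and 0.5 of a brain made a brain sample. The labels give neither age nor sex.

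As background, long-chain fatty acids reach tissues by several routes. In one, lipoprotein lipase (Lpl), made mostly by muscle, fat, neurons and macrophages, is carried by the endothelial protein Gpihbp1 to the vessel lumen, where it frees fatty acids from triglyceride-rich lipoproteins. The membrane receptor Cd36 and the intracellular binding proteins Fabp4 and Fabp5 then take part in moving fatty acids through endothelium. Vessels with a blood-brain barrier are known for another route, the transporter Mfsd2a, which moves lysophosphatidylcholine that carries docosahexaenoic acid and whose loss opens the barrier to vesicle transport. Phospholipid transfer protein (Pltp) is secreted and exchanges phospholipids between lipoproteins, and Lrp8 (also called ApoER2) is a receptor for apolipoprotein E and for reelin.

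In the positive fraction of choroid, RNA of Fabp4, Fabp5, Gpihbp1 and Cd36 was higher than in input, and RNA of Mfsd2a, Pltp, Lrp8 and Lpl was lower. In retina and brain, Mfsd2a and Pltp were far higher in the positive fraction than in input, and Fabp5 and Lpl did not pass the test. Levels are CPM (counts scaled to library size) after TMM scaling within a tissue, and a call is an adjusted p under 0.05 in edgeR's quasi-likelihood test with Benjamini-Hochberg adjustment over all genes of the table. Of the 8 members in choroid, 4 were called higher and 4 lower, where 21.1% of all 11718 genes were called higher and 20.9% lower. Of the 7 members in retina, 3 were called higher and 1 lower (18% and 13.7% of all 12369 genes). Of the 6 members in brain, 3 were called higher and 0 lower, and 3 did not pass (21.2% and 18.3% of all 12919 genes). A gene entered a table only where all libraries of at least 1 fraction had a raw value of 50 or more. Gpihbp1 in choroid, Mfsd2a in retina and Cd36 in brain entered through the positive fraction alone, and Mfsd2a in choroid and Cd36 in retina through the input alone, so the listing itself favours that direction for these 5, which add no support to the counts. With scaling by library size alone, the median log2 fold of all genes shifted by -0.226 in choroid, and 34.5% of the calls there were higher ones, against 50.2% with TMM.

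**Figure D1:**
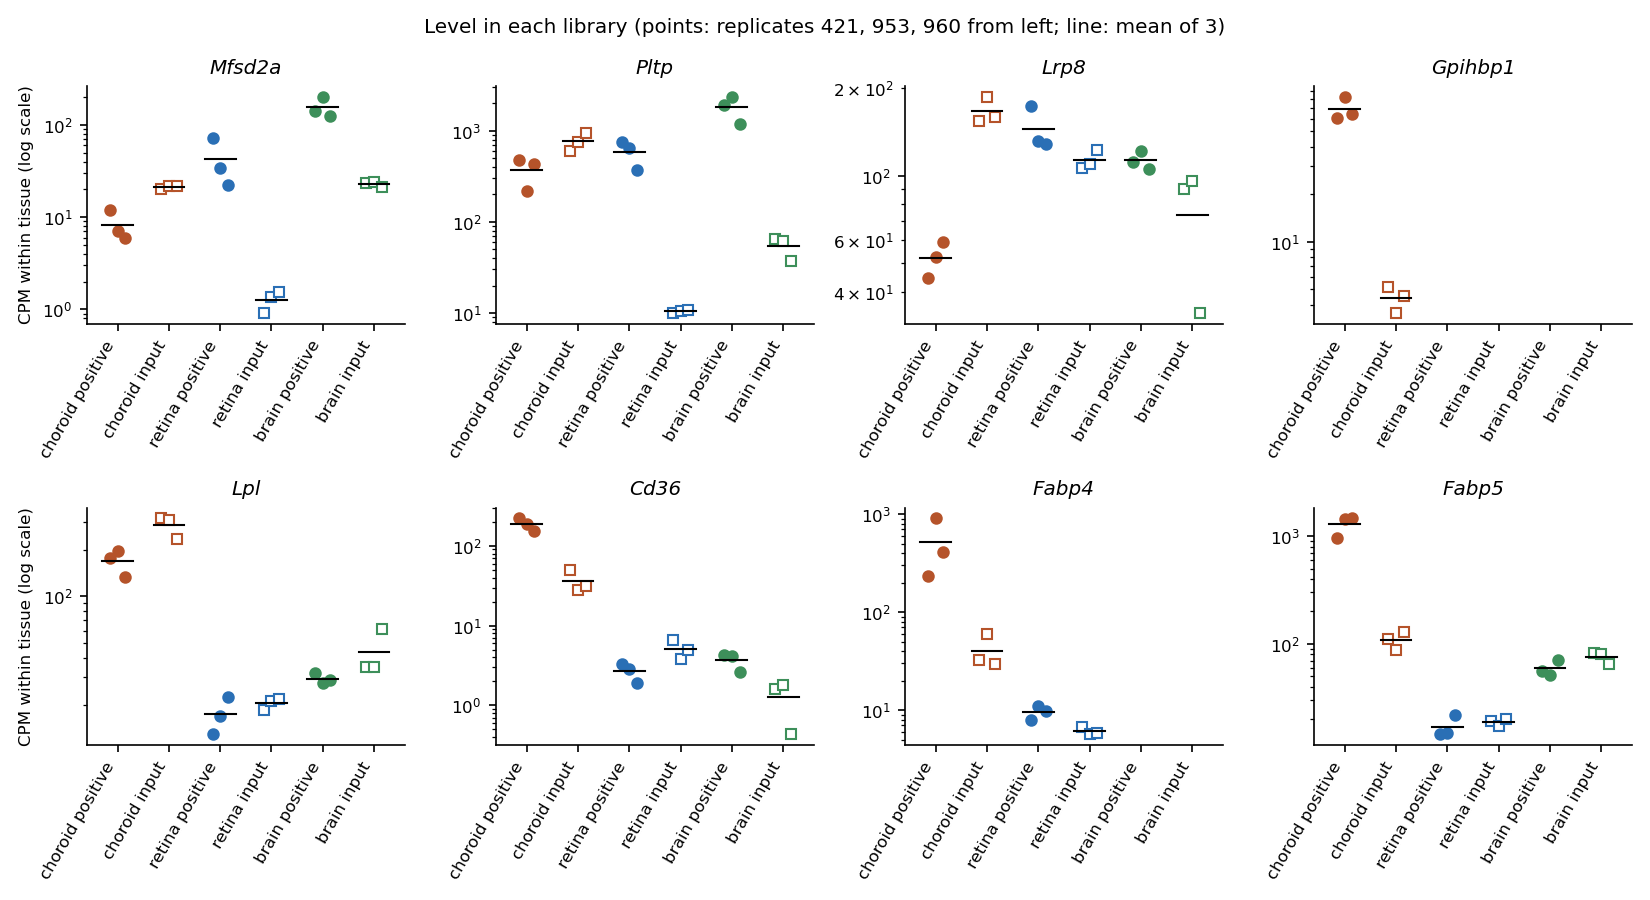
Level of each member in CPM within its tissue (log axis) in the 18 libraries; filled circles are positive fractions, open squares are inputs, and the line is the mean of 3. Fabp5 in choroid positive libraries (959 to 1462 CPM) and Pltp in brain positive libraries (1194 to 2357 CPM) stand far above their inputs, and the Mfsd2a circles stand above the squares in retina and brain and below them in choroid.

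The endothelial label was checked first. All 10 endothelial markers were called higher in the positive fraction of each tissue. In retina inputs these 10 summed to only 32.5 to 34.1 CPM. The listing rule favours this direction for any of them listed through the positive fraction alone. Pecam1, an adhesion protein of endothelial junctions, was higher by 3.88 ± 0.26 (log2, SE) in choroid, 6.16 ± 0.22 in retina and 5.85 ± 0.27 in brain. Cdh5, the cadherin of those junctions, was higher by 2.85 ± 0.36, 6.98 ± 0.35 and 5.38 ± 0.43 in the same order of tissues. Markers of macrophages and microglia, which are of the blood lineage, were pulled down as well. Their summed level was 16970 to 24680 CPM in choroid positive libraries, against 1775 to 3031 CPM in choroid inputs (12 of 14 measured), and 5216 to 6757 CPM in brain positive libraries, against 388 to 601 CPM in brain inputs (13 of 14). In retina it was 217 to 950 CPM in positive libraries, against 37.8 to 43.2 CPM in inputs (9 of 14). RPE markers summed to 3597 to 8033 CPM in choroid positive libraries, against 14390 to 23300 CPM in choroid inputs. In retina positive libraries, photoreceptor markers still summed to 27490 to 45210 CPM, against 46190 to 48420 CPM in retina inputs. Endothelial markers summed to 1467 to 2359 CPM in the same positive libraries. Neuron markers were at 2988 to 4726 CPM in retina and 3100 to 3966 CPM in brain positive libraries. Mast cell markers in choroid were at 344 to 1052 CPM, against 62.0 to 84.9 CPM in inputs. The part of these cells was not tested. Depth over listed genes ran from 2649095 counts (a choroid positive library) to 32064355 counts (a brain input). Brain input 960 stood apart from the other brain inputs (r of log2 CPM across genes 0.911 and 0.913, against 0.996 between the other pair), and the choroid libraries numbered 421 held more oligodendrocyte marker RNA (1942 CPM in the positive library and 5541 CPM in the input) than the other choroid libraries (258 to 441 CPM in positive libraries and 322 to 604 CPM in inputs). Without both choroid libraries 421, left out after seeing the data, all 8 members kept their direction and call in choroid, with Mfsd2a at -1.74 and Fabp4 at 3.89. In all of these bulk samples, fewer cells of a type and less RNA per cell cannot be told apart.

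Mfsd2a lies at chr4:122946851-122961188 on the minus strand (mm10). In choroid it had 11.8, 7.10 and 5.93 CPM in the positive libraries 421, 953 and 960, against 20.3, 21.7 and 21.8 CPM in the inputs. Every positive library was below every input, at raw values of only 52, 23.0 and 13.6, and the log2 fold was -1.33 ± 0.30 (SE, adjusted p = 0.00782). In retina it had 72.5, 34.2 and 22.2 CPM in the positive libraries, against 0.919, 1.36 and 1.55 CPM in the inputs. The retinal groups were far apart, with a log2 fold of 5.04 ± 0.48 (adjusted p = 9.39e-05), though the positive libraries themselves spread widely (4.43 without positive 421, adjusted p = 2.73e-06). Library 421, the highest for Mfsd2a, also had the highest summed level of mural cell markers (423 CPM, against 44.2 and 24.8 CPM in positive libraries 953 and 960; 3 of 8 measured), the highest of endothelial markers (2359 CPM, against 1825 and 1467 CPM) and the lowest of macrophage and microglia markers (217 CPM, against 762 and 950 CPM). Their part in the result was not tested. In brain Mfsd2a had 142, 201 and 125 CPM in the positive libraries, against 23.6, 23.8 and 21.5 CPM in the inputs. No positive library overlapped the inputs, and the log2 fold was 2.77 ± 0.22 (adjusted p = 0.00013). The brain fold was 2.72 without brain input 960 (adjusted p = 4.65e-05).

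Pltp lies at chr2:164839518-164857708 on the minus strand. In brain it had 1897, 2357 and 1194 CPM in the positive libraries, against 64.1, 62.4 and 36.8 CPM in the inputs. The log2 fold there was 5.06 ± 0.37 (adjusted p = 0.000103). In retina it had 755, 640 and 368 CPM in the positive libraries, against 10.0, 10.5 and 10.8 CPM in the inputs. The retinal groups did not overlap, and the log2 fold of 5.81 ± 0.28 (adjusted p = 1.77e-06) was the largest of any member in any tissue. In choroid it had 478, 217 and 428 CPM in the positive libraries, against 603, 744 and 950 CPM in the inputs. Here the positive libraries lay below the inputs, with a log2 fold of -1.03 ± 0.31 (adjusted p = 0.0282), but the call was lost without choroid input 953 (-1.07, adjusted p = 0.0644), input 960 (-0.85, 0.0798), positive 953 (-0.76, 0.0606) or positive 960 (-1.14, 0.0528). The gene shares 1515 bases with Ctsa, a lysosomal protease gene on the other strand, and the sources used here do not say whether counting used strand. Ctsa was called higher in all 3 positive fractions (1.45 in choroid, 0.65 in retina and 1.78 in brain), so its direction in choroid was opposite to that of Pltp.

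Lrp8 lies at chr4:107802259-107876840 on the plus strand, where 2 antisense genes overlap it. In choroid it had 44.5, 52.8 and 59.3 CPM in the positive libraries, against 155, 187 and 159 CPM in the inputs. All positive libraries were below all inputs, with a log2 fold of -1.68 ± 0.17 (adjusted p = 0.000244). In retina it had 174, 132 and 129 CPM in the positive libraries, against 106, 110 and 123 CPM in the inputs, a log2 fold of 0.36 ± 0.14 (adjusted p = 0.0805; 0.46 and 0.0241 without retina positive 960). In brain it had 112, 122 and 105 CPM in the positive libraries, against 90.0, 96.0 and 33.8 CPM in the inputs. The low input was library 960, the one that stood apart, and the log2 fold was 0.62 ± 0.37 (adjusted p = 0.219), or 0.28 (adjusted p = 0.0246) without it. Of the 3 tissues, Lrp8 was thus called in choroid alone, where it was lower in the positive fraction.

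Gpihbp1, the anchor of lipoprotein lipase in capillaries, lies at chr15:75596658-75598213 on the plus strand and was analysed in choroid only. It had 60.4, 82.7 and 64.9 CPM in the positive libraries, against 5.17, 3.55 and 4.54 CPM in the inputs. With a log2 fold of 3.96 ± 0.25 (adjusted p = 4.66e-05) it ranked 15 of 11718 genes by log2 fold, near Pecam1 (rank 20) and Cldn5 (rank 4), a tight junction protein of endothelium. Gpihbp1 was listed through the positive fraction alone, which favours this direction, so its rank adds no support.

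Lpl, the lipase that Gpihbp1 binds, lies at chr8:68880555-68906932 on the plus strand. In choroid it had 177, 196 and 132 CPM in the positive libraries, against 318, 310 and 232 CPM in the inputs. All positive libraries lay below the inputs, with a log2 fold of -0.76 ± 0.21 (adjusted p = 0.0187), and the call was lost without choroid input 421 (adjusted p = 0.0507), input 953 (0.0631) or positive 960 (0.0596). In retina it had 12.9, 16.8 and 22.4 CPM in the positive libraries, against 18.4, 21.2 and 21.6 CPM in the inputs, groups that overlapped (log2 fold -0.22 ± 0.20, adjusted p = 0.426). In brain it had 31.9, 27.6 and 29.0 CPM in the positive libraries, against 35.0, 35.2 and 61.4 CPM in the inputs (log2 fold -0.57 ± 0.25, adjusted p = 0.112). The highest brain input was again library 960, without which the log2 fold was -0.25 (adjusted p = 0.0473). In a fit of all 18 libraries it was -0.75 (adjusted p = 0.0128). In no tissue was Lpl higher in the positive fraction. In choroid the lipase and its carrier differed in direction, but the listing favoured that of Gpihbp1, and the Lpl call was not stable.

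Cd36, the fatty acid receptor, lies at chr5:17781690-17888959 on the minus strand. In choroid it had 221, 189 and 153 CPM in the positive libraries, against 49.3, 28.2 and 31.2 CPM in the inputs. The groups did not overlap, and the log2 fold was 2.37 ± 0.26 (adjusted p = 0.000281). In retina it was near the floor of the table, with raw values of 21.9, 18 and 21 in the positive libraries, against 101, 82 and 90.6 in the inputs. These made 3.26, 2.85 and 1.89 CPM in the positive libraries, against 6.63, 3.83 and 4.88 CPM in the inputs. The log2 fold of -0.97 ± 0.31 (adjusted p = 0.0438) lost its call in 6 of 12 alternatives, among them leaving out retina input 421, 953 or 960 or positive 953 or 960 (adjusted p = 0.0505 to 0.153). In brain it had 4.28, 4.12 and 2.62 CPM in the positive libraries, against 1.59, 1.78 and 0.433 CPM in the inputs. The log2 fold of 1.42 ± 0.44 (adjusted p = 0.0418) lost its call in 6 of 12 alternatives too, at log2 folds of 1.30 to 1.68, among them leaving out brain input 421 or 953 or any of the positive libraries (adjusted p = 0.0562 to 0.135), and was 1.12 without brain input 960 (adjusted p = 0.00843).

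Fabp4 and Fabp5, which bind fatty acids inside cells, lie on chromosome 3 with 187732 bases between them, at chr3:10204343-10208576 (minus strand) and chr3:10012585-10016610 (plus strand). Fabp4 had 235, 906 and 412 CPM in the choroid positive libraries, against 32.2, 59.2 and 29.9 CPM in the choroid inputs. All positive libraries were above the inputs, with a log2 fold of 3.68 ± 0.52 (adjusted p = 0.00091), and 3.00 without positive 953 (adjusted p = 0.00208). Positive library 953, the highest for Fabp4, also held the most marker RNA of striated muscle (1505 CPM, against 330 and 423 CPM in positive libraries 421 and 960) and of mast cells (1052 CPM, against 344 and 501 CPM). Of 8 adipocyte markers, which belong to another cell type known for Fabp4, 3 were measured in choroid, at a summed 49.2 to 112 CPM in positive libraries, against 68.5 to 108 CPM in inputs. The defining adipocyte genes Adipoq and Plin1 were not among those analysed. In retina Fabp4 had 8.01, 10.9 and 9.70 CPM in the positive libraries, against 6.69, 5.65 and 5.89 CPM in the inputs. The log2 fold of 0.65 ± 0.20 (adjusted p = 0.0357) lost its call with the replicate number as a block (0.65, adjusted p = 0.0641), and when retina input 421, 953 or 960 or positive 953 was left out (adjusted p = 0.0786 to 0.135).

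Fabp5 had 959, 1454 and 1462 CPM in the choroid positive libraries, against 112, 87.5 and 129 CPM in the choroid inputs. No library overlapped, and the log2 fold was 3.56 ± 0.26 (adjusted p = 8.01e-05). In retina it had 14.5, 14.9 and 22.0 CPM in the positive libraries, against 19.4, 17.4 and 20.3 CPM in the inputs (log2 fold -0.14 ± 0.19, adjusted p = 0.608). In brain it had 56.2, 51.3 and 70.5 CPM in the positive libraries, against 81.8, 81.4 and 64.8 CPM in the inputs (log2 fold -0.36 ± 0.18, adjusted p = 0.154; -0.46 and 0.018 without brain input 960, and -0.55 and 0.0426 in a fit of all 18 libraries). Positive fractions and inputs overlapped in both of these tissues. Reads of Fabp5 may be shared with the similar gene Fabp5l2 of the annotation, so its level is uncertain to that extent. Cd36, Fabp4, Fabp5 and Lpl are also known from macrophages, whose markers moved with the choroid positive fraction as given above. Their part in the choroid values was not tested.

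**Figure D2:**
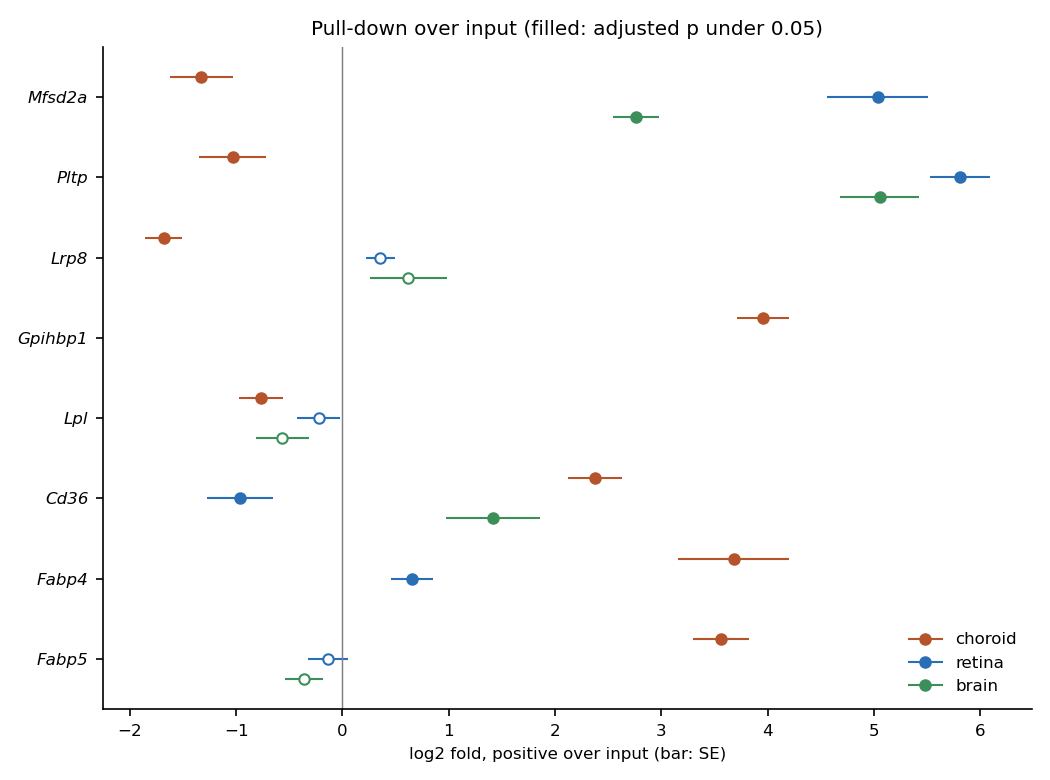
Log2 fold of positive over input for each member (points, with SE bars) in choroid, retina and brain; filled points passed an adjusted p of 0.05. Mfsd2a and Pltp lie below 0 in choroid (-1.33 and -1.03) and between 2.77 and 5.81 in retina and brain, while Fabp5 lies at 3.56 in choroid and at -0.14 and -0.36 elsewhere.

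Per kilobase of the principal transcript, where levels of different genes can be set side by side, choroid positive fractions held 1309 CPM per kb of Fabp5, 578 of Fabp4, 168 of Pltp, 84.0 of Gpihbp1, 55.2 of Cd36, 40.9 of Lpl, 11.5 of Lrp8 and 3.85 of Mfsd2a. In retina positive fractions Pltp was at 264 CPM per kb and Lrp8 at 31.8, with Mfsd2a at 20.0, Fabp5 at 17.4, Fabp4 at 10.7 and Lpl at 4.22. In brain positive fractions Pltp was at 816 CPM per kb, ahead of Mfsd2a at 72.5, Fabp5 at 60.1, Lrp8 at 24.8 and Lpl at 7.17. Cd36 came last in both, at 0.785 CPM per kb in retina and 1.08 in brain. These are means of 3 libraries with wide spreads. The SDs of Fabp4 in choroid (388) and of Mfsd2a in retina (12.2) were more than 0.5 of the mean. Libraries of neighbours in this order overlapped for Fabp5 and Fabp4, Pltp and Gpihbp1, and Cd36 and Lpl in choroid, for Lrp8 and Mfsd2a and for Mfsd2a and Fabp5 in retina, and for Mfsd2a and Fabp5 in brain.

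Windows of sequence upstream of members are shown because Mfsd2a and Pltp were lower than input in the positive fraction of choroid and higher in those of retina and brain. The listing rule favours the direction of Mfsd2a in choroid and in retina. Cd36 was higher in choroid. Its calls in retina (lower) and brain (higher) rest on few counts, and each was lost in 6 of 12 alternatives. Each holds the 250 bases before a transcript start that RefSeq (GRCm38.p6) gives for the gene, read 5′ to 3′ on the gene's strand, for Mfsd2a at chr4:122961189-122961438, Pltp at chr2:164857709-164857958 and Cd36 at chr5:17835897-17836146, all on the minus strand. The Cd36 start lies inside the span given above for that gene, so this window is of an internal start. Capitals mark, on either strand, the TATA box (TATAAA), the GC box (GGGCGG), the core of TCF and LEF factors (CTTTGA) and a site shared by many nuclear receptors (AGGTCA).
Mfsd2a: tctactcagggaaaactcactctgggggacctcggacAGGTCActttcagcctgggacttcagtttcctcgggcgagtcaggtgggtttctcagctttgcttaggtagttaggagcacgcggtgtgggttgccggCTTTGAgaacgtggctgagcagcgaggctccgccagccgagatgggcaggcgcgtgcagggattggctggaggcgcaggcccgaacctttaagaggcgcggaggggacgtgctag
Pltp: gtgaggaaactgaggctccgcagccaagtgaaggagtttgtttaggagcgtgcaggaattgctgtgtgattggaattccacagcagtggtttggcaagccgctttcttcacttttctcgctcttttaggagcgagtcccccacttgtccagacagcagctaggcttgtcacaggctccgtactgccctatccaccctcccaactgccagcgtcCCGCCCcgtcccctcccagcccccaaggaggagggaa
Cd36: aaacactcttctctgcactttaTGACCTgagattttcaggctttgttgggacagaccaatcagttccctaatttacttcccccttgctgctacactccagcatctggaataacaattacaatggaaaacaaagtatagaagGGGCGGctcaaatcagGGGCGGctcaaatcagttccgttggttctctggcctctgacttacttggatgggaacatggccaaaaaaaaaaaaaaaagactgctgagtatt
The Mfsd2a window held 61.6% G or C and 17 CpG dinucleotides, the Pltp window 57.6% and 9, and the Cd36 window 43.2% and 3, where the medians over 32841 such windows were 52.4% and 6. The capitals mark 1 nuclear receptor site and 1 TCF and LEF core in Mfsd2a, 1 GC box in Pltp, and 2 GC boxes and 1 nuclear receptor site in Cd36. Of all windows, 14.0% held the nuclear receptor site, 13.8% the TCF and LEF core, 32.8% the GC box and 12.4% the TATA box on either strand. The spaced repeat of that site, the DR1 element bound by PPAR receptors, was in none of these windows and in 0.0335% of all windows. These are matches of letters and not tested sites.

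The difference in enrichment between tissues was tested directly, as the log2 fold of positive over input in 1 tissue minus that in another, in a fit of all 18 libraries over 10505 genes. Pltp and Mfsd2a were among the genes with the most negative differences for choroid against either neural tissue, and Fabp5 among the most positive. For Mfsd2a the listing rule favours this direction, so its place adds no support. Endothelial markers moved as well: 7 of 10 were lower for choroid minus brain (median -1.84) and 9 of 10 for choroid minus retina (median -2.70), with 0 higher in either, and for retina minus brain 2 were higher and 1 lower (median 1.04). Their part in the members' differences was not tested. For choroid minus brain, 1 of 6 members was called higher and 3 lower (12.2% and 12.3% of all genes). Fabp5 was at 4.09 ± 0.31 (adjusted p = 2.02e-07; rank 4 of 10505), Pltp at -5.91 ± 0.49 (5.12e-07; rank 10500), Mfsd2a at -3.90 ± 0.49 (2.47e-05) and Lrp8 at -2.13 ± 0.38 (0.000708). Cd36 was at 1.18 ± 0.46 (adjusted p = 0.0713), and was called with the replicate number as a block (1.06, adjusted p = 0.0357), without choroid input 421 (1.29, 0.0482) and without brain input 960 (1.24, 0.0295). Lpl was at -0.03 ± 0.32 (adjusted p = 0.954).

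For choroid minus retina, 2 of the 6 were called higher and 3 lower (10.9% and 18% of all genes). Pltp was at -6.81 ± 0.51 (adjusted p = 2.35e-07), rank 10504 of 10505, and Mfsd2a at -6.33 ± 0.53 (6.22e-07), rank 10496. Fabp5 was at 3.73 ± 0.31 (6.03e-07), rank 5, Cd36 at 3.37 ± 0.47 (8.73e-05), rank 14, and Lrp8 at -2.01 ± 0.38 (0.00105). Fabp4, fitted over the 10704 genes of the choroid and retina tables (13.8% of them called higher), was at 3.11 ± 0.58 (adjusted p = 0.00176), or 2.40 without choroid positive 953 (0.00208). For retina minus brain, 1 of 6 was called higher and 1 lower (8.33% and 4.97% of all genes). Mfsd2a was at 2.42 ± 0.49 (adjusted p = 0.00431) and Cd36 at -2.19 ± 0.51 (0.0102), while Pltp (0.90 ± 0.46, adjusted p = 0.207), Lpl (0.48 ± 0.33), Fabp5 (0.36 ± 0.31) and Lrp8 (-0.12 ± 0.37) did not pass the test. Without retina positive 421, Mfsd2a was at -5.72 for choroid minus retina and at 1.82 for retina minus brain (adjusted p = 5.02e-07 and 0.00571). The rule by which genes entered the tables favours the direction of Mfsd2a in all 3 differences, and that of Cd36 in choroid minus retina and retina minus brain, so these values add no support to the counts. The 3 differences share libraries and are not independent of one another. With scaling by library size alone, higher calls made up 19.9% of all calls for choroid minus brain (49.8% with TMM), 17.8% for choroid minus retina (37.7% with TMM) and 52.4% for retina minus brain (62.6% with TMM), and every member called above kept its direction and call.

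**Figure D3:**
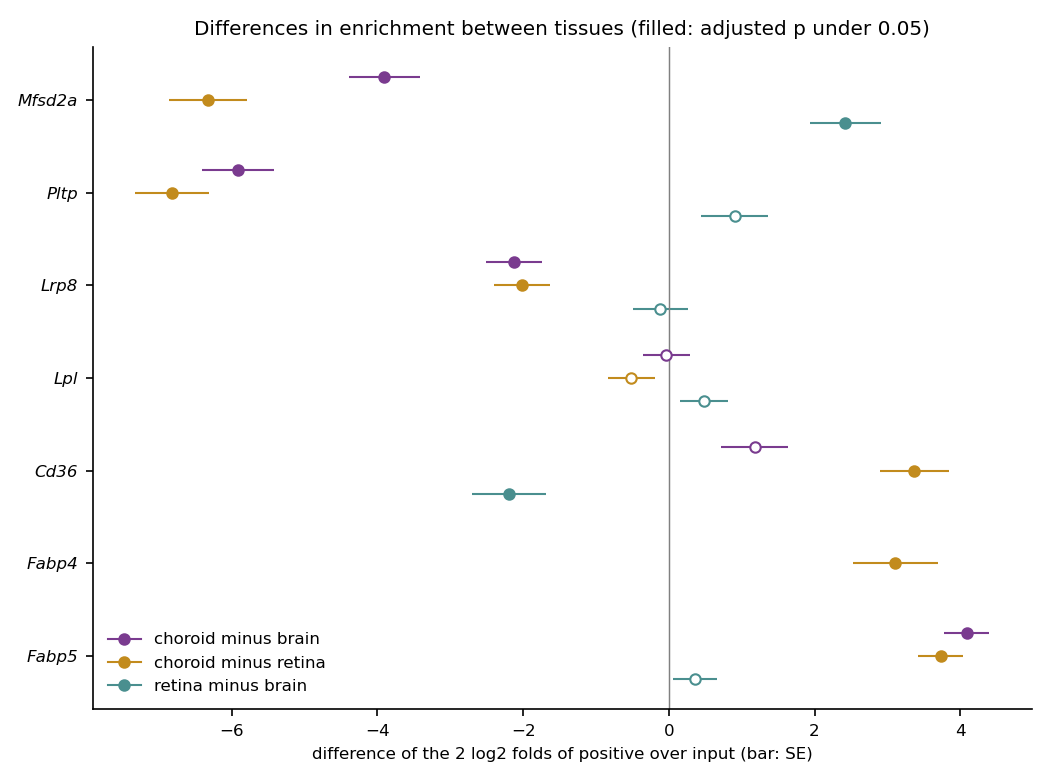
Difference between tissues of the log2 fold of positive over input (points, with SE bars) for the 7 members analysed in more than 1 tissue; filled points passed an adjusted p of 0.05. Mfsd2a and Pltp lie between -3.90 and -6.81 for choroid against either other tissue, and Fabp5 at 3.73 and 4.09.

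Set beside each other directly, positive fractions of choroid held more RNA of Cd36, Fabp5 and Lpl than those of brain, and less of Mfsd2a, Pltp and Lrp8. These folds are scaled over the 9 positive libraries, which moved mean levels by 0.385 to 6.33% from those above. For choroid over brain, 3 of 6 members were called higher and 3 lower (23.1% and 23.8% of all genes). Cd36 was at 5.76 ± 0.26 (adjusted p = 1.1e-08), rank 9 of 10505, Fabp5 at 4.52 ± 0.26 and Lpl at 2.59 ± 0.21, against -4.10 ± 0.43 for Mfsd2a, -2.20 ± 0.36 for Pltp and -1.04 ± 0.17 for Lrp8 (adjusted p = 4.02e-08 to 0.000317). For choroid over retina, 3 were called higher and 2 lower (32.9% and 39.1% of all genes). Fabp5 was at 6.23 ± 0.29 (adjusted p = 7.48e-09; rank 10), Cd36 at 6.18 ± 0.28 (7.48e-09; rank 12) and Lpl at 3.27 ± 0.22 (7.61e-08), against -2.31 ± 0.43 for Mfsd2a (0.000337) and -1.48 ± 0.18 for Lrp8 (8.16e-06). Pltp was at -0.65 ± 0.34 (adjusted p = 0.109; -0.86 and 0.0347 with library size alone, and -0.90 and 0.0336 without retina positive 960). Fabp4 was at 5.85 ± 0.48 over the genes of the 2 tables (1.08e-06; 32.2% of those genes called higher), or 5.16 without choroid positive 953 (1.76e-06). For retina over brain, 1 member was called higher and 4 lower (32.1% and 31% of all genes). Mfsd2a (-1.79 ± 0.36, adjusted p = 0.000823), Fabp5 (-1.71 ± 0.24, 6e-05), Pltp (-1.55 ± 0.35, 0.00194) and Lpl (-0.68 ± 0.21, 0.013) were lower in retina, and Cd36 was at -0.43 ± 0.29 (0.207). Lrp8 was higher by 0.43 ± 0.17 (adjusted p = 0.036), a call lost with DESeq2 size factors (0.39, 0.0595) and without retina positive 421 or any brain positive library 421, 953 or 960 (adjusted p = 0.0513 to 0.138). The call for Lpl was lost without retina positive 421 (-0.50, 0.0501), and Mfsd2a was then at -2.40 for retina over brain and -1.70 for choroid over retina. The listing rule favours the direction of Mfsd2a for choroid over retina and of Cd36 for retina over brain, so these values add no support. Markers moved beside these levels. Of 10 endothelial markers, 3 were higher and 1 lower for choroid over brain (median 0.34), 9 higher and 0 lower for choroid over retina (1.70), and 0 higher and 8 lower for retina over brain (-1.45). Of 8 macrophage and microglia markers, 2 were higher and 3 lower (0.28), 7 higher and 0 lower (3.61), and 0 higher and 8 lower (-3.11) in the same order. Their part was not tested. With library size alone, 35.7% of all calls for choroid over brain were higher ones (49.3% with TMM), and the median of all genes shifted by -0.166 there and by -0.217 for choroid over retina.

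Input levels were compared in the same way. For the inputs of choroid over brain, 5 of 6 members were called higher and 0 lower (26.7% and 27.4% of all genes), among them Cd36 (4.68 ± 0.43), Pltp (3.81 ± 0.26), Lpl (2.71 ± 0.25) and Lrp8 (1.18 ± 0.33; 0.83 without brain input 960), with adjusted p = 3.88e-06 to 0.0141. Fabp5 was higher by 0.52 ± 0.17 (adjusted p = 0.027), which was lost without choroid input 421 or 960 (0.0674 and 0.101) and in the fit of these 2 tissues (0.47, 0.0977). The inputs gave -0.11 ± 0.16 for Mfsd2a (adjusted p = 0.595), which did not pass, while its positive fractions differed by -4.10 on the log2 scale. For the inputs of choroid over retina, 5 of 6 were called higher and 0 lower (31.9% of all genes in each direction), led by Pltp at 6.33 ± 0.30, Mfsd2a at 4.18 ± 0.20 and Lpl at 3.95 ± 0.26, with Cd36 at 2.97 ± 0.38 and Fabp5 at 2.66 ± 0.18 (adjusted p = 5.36e-07 to 0.000133). Lrp8 was at 0.70 ± 0.33 (adjusted p = 0.0893) and was called in the fit of these 2 tissues (0.70, 0.000708) and without brain input 960 (0.55, 0.001). Fabp4 was higher by 2.86 ± 0.29 over the genes of the 2 tables (6.18e-05; 37.5% of those genes called higher). For the inputs of retina over brain, 1 of 6 members was called higher and 4 lower (24.3% and 34.7% of all genes). Cd36 was higher by 1.71 ± 0.41 (adjusted p = 0.0062), and Mfsd2a, Pltp, Fabp5 and Lpl were lower by 4.29, 2.52, 2.14 and 1.23 on the log2 scale. Lrp8 was at 0.48 ± 0.33 (adjusted p = 0.232). The listing rule favours the direction of Cd36 for inputs of retina over brain and of Mfsd2a for inputs of choroid over retina. These 2 values add no support to the counts. Among the inputs, endothelial markers were higher in choroid than in brain (9 of 10, median 2.47) and in retina (10 of 10, 4.74), and lower in retina than in brain (9 of 10, -2.46). Macrophage and microglia markers were higher in choroid than in brain (6 of 8, with 1 lower, 1.23) and in retina (8 of 8, 4.90), and lower in retina than in brain (8 of 8, -3.72). RPE markers were higher in choroid than in brain (4 of 4, 6.57) and in retina (4 of 4, 4.90), and 2 were higher and 1 lower for retina over brain (2.34). Their part in the members' input levels was not tested. With library size alone, 52.8% of all calls for retina over brain inputs were higher ones (41.1% with TMM), with a shift of the median by 0.202.

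**Figure D4:**
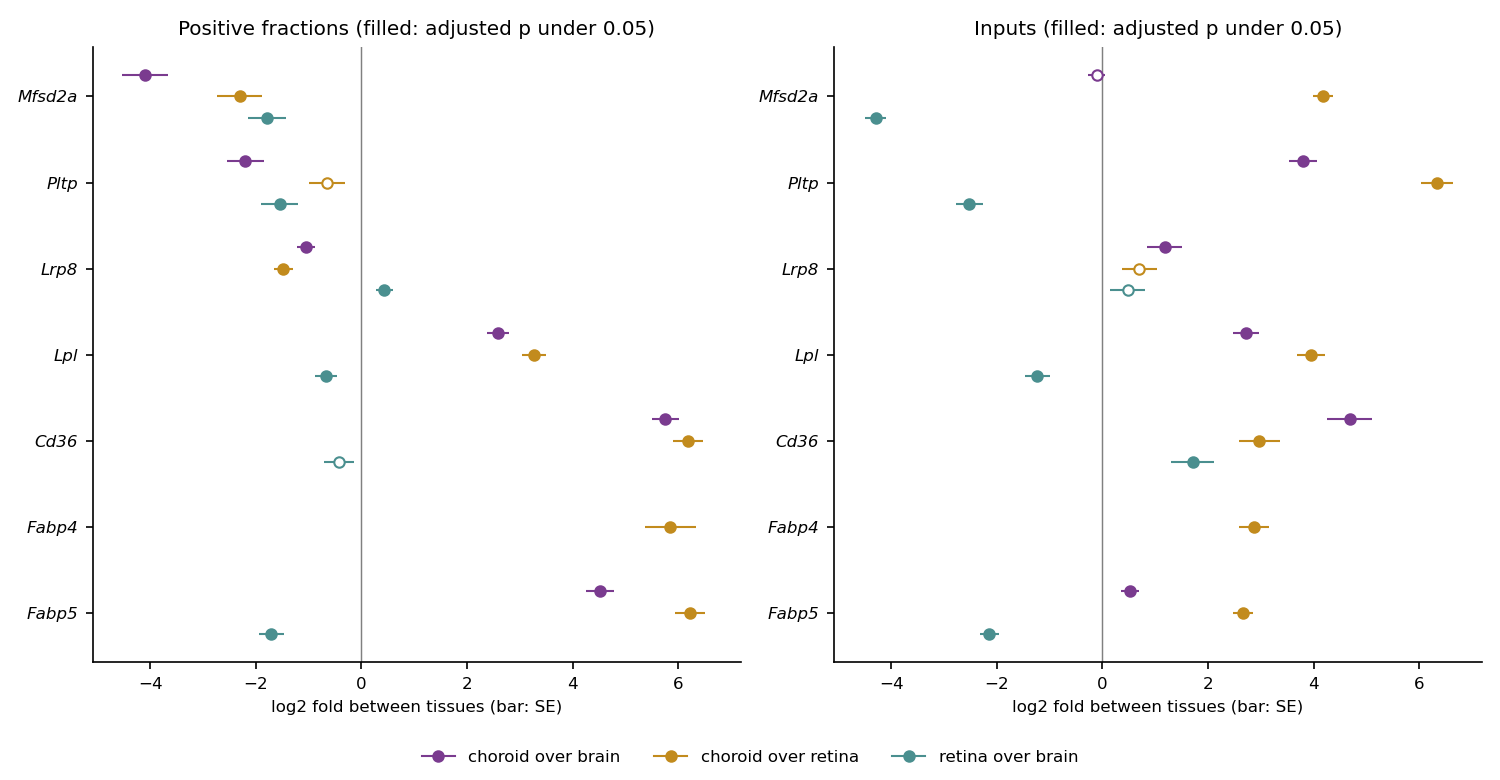
Log2 fold between tissues (points, with SE bars) of the positive fractions (left) and of the inputs (right) for the 7 members analysed in more than 1 tissue; filled points passed an adjusted p of 0.05. Pltp is lower in choroid than in brain among positive fractions (-2.20) and higher among inputs (3.81), and Mfsd2a differs by -4.10 among positive fractions and by -0.11 among inputs.

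Across the 18 libraries, the level of Pltp went with that of Mfsd2a (Pearson r of log2(CPM + 1) 0.804), and those of Fabp5 and Cd36 (0.827), Cd36 and Lpl (0.786) and Fabp5 and Lpl (0.764) went together, while Fabp5 and Lrp8 ran apart (-0.529). The 18 points share 6 groups and 3 replicate numbers, so these are descriptions. Among genes of all 3 tables that averaged 10 CPM or more, the most alike to Mfsd2a were Tnfrsf19 (0.976) and Itih5 (0.972). Those most alike to Pltp were Abcc4 (0.983) and Slco1a4 (0.983), both transporters of organic anions. Cd36 was most like F2r (0.968), the thrombin receptor, and Tmem165 (0.965), Fabp5 like Fam174b (0.981) and Atg7 (0.974), Lpl like Degs1 (0.988) and Mgll (0.984), and Lrp8, less closely, like Pomgnt1 (0.878) and Npnt (0.862).

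The members were then set among 8 lists of other lipid genes with 123 genes, 116 of them measured in at least 1 tissue. Counts are of calls for positive over input, and the medians are log2 folds, where the median of all genes was -0.03, -0.01 and -0.07 in choroid, retina and brain. Of all genes, 21.1% were called higher and 20.9% lower in choroid, 18% and 13.7% in retina, and 21.2% and 18.3% in brain. No list was tested against these shares. Macrophage and microglia markers were pulled down too, as given above, and their part in these lists was not tested. With library size alone or DESeq2 size factors no list median in these tissues changed sign but that of the lipase partners in choroid (-0.05 with library size alone). Of the genes for fatty acid uptake, activation and binding, 2 were higher and 5 lower of 11 in choroid (median -0.41), 1 and 4 of 11 in retina (-0.25), and 1 and 6 of 13 in brain (-0.77). Acsl5, which couples fatty acids to coenzyme A, was higher in every positive fraction (2.23 in choroid, 1.35 in retina and 1.00 in brain), and its relatives Acsl3 (-1.36, -0.69 and -0.92) and Acsl6 (-2.35, -0.61 and -1.17) were lower in each.

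Of the partners and inhibitors of lipases, 2 were higher and 2 lower of 12 in choroid (median 0.18), 4 and 1 of 10 in retina (0.35), and 7 and 4 of 12 in brain (0.66). Lipa, the lysosomal acid lipase, was higher in each (0.69, 1.00 and 1.84). Furin, a protease that cuts lipases and their inhibitors, was higher in retina (0.63) and brain (1.50) and at -0.22 in choroid (adjusted p = 0.314). Sel1l, which helps Lpl to leave the endoplasmic reticulum, was lower in brain (-0.45), with 0.15 in choroid and -0.15 in retina. Angptl4, an inhibitor of Lpl, was named after its values were seen. In brain it was higher by 3.14 ± 0.29 (adjusted p = 0.000272), and in choroid the log2 fold was -1.26 ± 0.46 (adjusted p = 0.057).

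Of the lipoprotein receptors and lipid efflux genes, 6 were higher and 7 lower of 20 in choroid, 5 and 8 of 20 in retina, and 6 and 5 of 19 in brain (medians -0.03, -0.09 and -0.19). Apoe, a lipoprotein ligand of Lrp8, averaged 31340 CPM in choroid positive fractions, against 7571 CPM in choroid inputs (2.05 ± 0.27, adjusted p = 0.000612), with -0.07 in retina (0.878) and 0.47 in brain (0.0564). Clu, another apolipoprotein, was lower in each (-1.72, -0.99 and -0.92), and Lrp1, a lipoprotein receptor, was called higher in retina (0.65), with -0.42 in choroid and -0.29 in brain. Of 9 reelin pathway partners of Lrp8, 3 were higher and 5 lower in choroid, 1 and 2 in retina, and 2 and 3 in brain (medians -0.99, -0.22 and -0.07). Vldlr, the other reelin receptor, was lower in each tissue (-2.22, -0.46 and -1.13). Rapgef1 was higher in choroid (0.79) and brain (1.00), and the kinase gene Fyn was higher in choroid (2.03). Of the genes for lysophospholipids and sphingosine phosphate, 4 were higher and 1 lower of 13 in choroid, 4 and 4 of 14 in retina, and 4 and 5 of 14 in brain (medians 0.31, 0.06 and -0.39). Enpp2, which makes lysophosphatidic acid, was lower in each (-2.01, -0.83 and -1.72), and the lipid phosphatase gene Ppap2a was higher in each (3.34, 0.62 and 1.02). Its relative Ppap2b was higher in choroid (1.51) and lower in retina (-0.87) and brain (-1.27).

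Of the transcriptional regulators of lipid genes, 6 were higher and 4 lower of 17 in choroid, 3 and 5 of 14 in retina, and 8 and 2 of 16 in brain (medians -0.12, -0.18 and 0.13). Nr1h2, an oxysterol receptor, was higher in retina (0.46) and brain (1.20) and at 0.17 in choroid. Srebf2 and its escort Scap, of sterol synthesis, were lower in retina (Srebf2, -0.33) and in choroid (Scap, -0.81), with no other call. Tcf15, Meox1, Pparg and Ppard were named after their values were seen. Tcf15 is known, with Meox2, to control fatty acid uptake in capillary endothelium of mouse heart, and Meox1 is a homologue of Meox2. Tcf15 had 46.3, 109 and 51.3 CPM in choroid positive libraries, against 3.30, 3.24 and 4.47 CPM in choroid inputs (4.22 ± 0.39, adjusted p = 0.000162), and was higher by 3.00 ± 0.57 in brain (0.00659). Its highest choroid positive library was 953, as it was for Fabp4. Tcf15 was listed in choroid through the positive fraction alone, as Gpihbp1 was. The listing favours this direction, so the choroid fold adds no support. Meox1 was higher by 1.56 ± 0.32 in choroid (adjusted p = 0.00531) and by 3.93 ± 0.25 in brain (6.32e-05). Pparg, a nuclear receptor that binds fatty acids, was analysed in choroid only, where it was higher by 1.59 ± 0.25 (0.00164), and its relative Ppard was higher in retina (0.45) and brain (2.04) and at -0.15 in choroid (0.552).

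Of the fatty acid oxidation genes, 0 were higher and 8 lower of 17 in choroid (median -0.43), 5 higher and 0 lower of 18 in retina (0.26), and 8 higher and 1 lower of 17 in brain (0.49). Cpt1a, the entry step of mitochondrial oxidation, was lower in choroid (-0.91 ± 0.20), higher in brain (1.55 ± 0.25) and at 0.12 ± 0.11 in retina. Acadvl was higher in retina (1.18), with -0.37 in choroid and 0.41 in brain, and Etfb passed in no tissue (-0.30, 0.20 and 0.49). Tested directly, 10 of the 17 measured in all tissues had a lower enrichment in choroid than in brain (12.3% of all genes) and 11 a lower one than in retina (18% of all genes), with 0 higher in either. With library size alone these counts were 11 and 12, against a larger share of lower calls over all genes. For choroid minus brain, 2196 of 10505 genes were then lower (1296 with TMM). For choroid minus retina, higher calls then made up 17.8% of all calls (37.7% with TMM). Levels were compared as well, and in positive fractions of choroid 14 of 17 were higher than in brain and 1 lower (median 0.72; 23.1% and 23.8% of all genes), and in inputs 16 were higher and 1 lower (1.75; 26.7% and 27.4%). Of the genes for lipid droplets and triglyceride turnover, 3 were higher and 4 lower of 11 in choroid, 4 and 0 of 8 in retina, and 4 and 1 of 12 in brain (medians -0.37, 0.48 and -0.07). Plin2, a coat protein of lipid droplets, was higher in every positive fraction (1.21 in choroid, 1.76 in retina and 2.34 in brain), as was Pnpla2, which starts triglyceride breakdown (0.73, 1.34 and 2.21). Mgll, which splits monoglycerides, was called in no tissue (-0.37, -0.18 and -0.17).

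**Figure D5:**
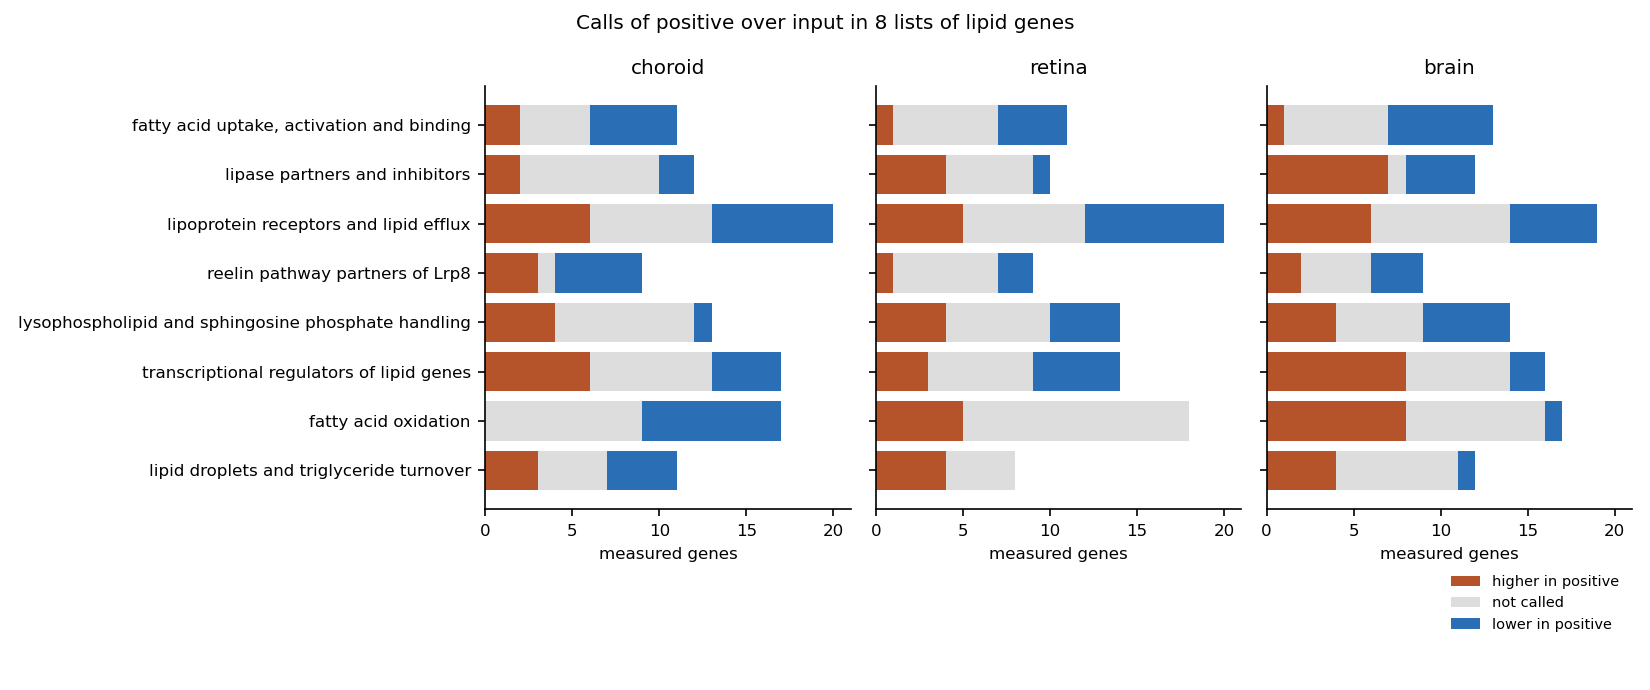
Number of measured genes in 8 lists of lipid genes called higher, not called or called lower in the positive fraction over input, in choroid, retina and brain. Fatty acid oxidation has 0 higher and 8 lower calls in choroid and 8 higher and 1 lower in brain. Over all genes, 21.1% were higher and 20.9% lower in choroid, 18% and 13.7% in retina, and 21.2% and 18.3% in brain.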

How the data were processed

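RNA was measured in 18 libraries made with a directional kit, per the labels. The authors deposited 1 table per tissue. Its raw columns hold expected counts per gene as deposited by the authors, 72.0% of them not whole in choroid, 91.5% in retina and 90.2% in brain, which were rounded for the count models. Its normalized columns are log2 values deposited by the authors, relative to the inputs, and were not used. DESeq and the build mm10 are named in the submitters' processing notes. Aligner and counter: not given in the sources used here. Genes under the header's minimum (a raw value of 50 in all libraries of at least 1 fraction, per the file headers) were not analysed here. Groups and replicate numbers came from the titles.

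Each tissue was fitted alone (4 residual degrees of freedom), the 18 libraries together for differences in enrichment (12), and the 9 positive libraries and the 9 inputs for levels between tissues (6 each), over the 10505 genes listed in all tables, with edgeR 4.0.16 in R 4.3.3 (TMM, filterByExpr, which removed 0 genes, quasi-likelihood F test, two-sided). Fabp4 was fitted over the choroid and retina tables. SE is the log2 fold over the root of F. CPM per kb used the principal transcript of GENCODE. Fits were also run on simulated counts, drawn independently for each library. These lacked the pairing by lysate and a library that stands apart, so that run does not vouch for the calls. The 8 members and the lists were chosen with earlier results of these data known. The text names the members, the 3 genes of each list with the highest mean level in positive libraries, Pecam1, Cdh5, Cldn5 and the 2 genes most like each member, and says where another gene is named. Alternatives were DESeq2 1.42.0 and its size factors, scaling by library size, no filter and one of 10 CPM, the replicate block, joint and pairwise fits, and leaving out libraries. Within a tissue, input and positive of a number are parts of 1 lysate, per the labels' protocols, so the numbers pair them: the correlation of their deviations was 0.278 to 0.648 for choroid, 0.0191 to 0.18 for brain and 0.0104 to 0.0999 for retina. The main fits did not use this pairing, and only the replicate block did. Whether a number marks the same animal in different tissues was not given in the sources used here.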

Additional observations from a re-analysis of the deposited data

Results flagged for a closer look

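For these results the difference between tissues in the log2 fold of positive over input passed its own test (edgeR's quasi-likelihood test, adjusted p under 0.05). For choroid minus brain they were Fabp5 (4.09), Lrp8 (-2.13), Mfsd2a (-3.90) and Pltp (-5.91). For choroid minus retina they were Fabp5 (3.73), Cd36 (3.37), Fabp4 (3.11), Lrp8 (-2.01), Mfsd2a (-6.33) and Pltp (-6.81). For retina minus brain they were Mfsd2a (2.42) and Cd36 (-2.19). The rule by which genes entered the tables favours the direction of Mfsd2a in all 3 differences and of Cd36 in both differences with retina. With 3 libraries in a group no library was tested as an outlier.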

How the results depend on the processing

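Of 1251 values of 78 member results under the alternatives, 1200 kept direction and call, 33 lost a call, 13 gained one and 5 changed sign. All sign changes were of Lpl, in differences in enrichment that were not called: choroid minus brain ran from -0.53 to 0.10 with 1 library left out, and was above 0 without choroid input 953 (0.022), brain input 421 (0.10), brain input 953 (0.10) or brain positive 421 (0.028). Retina minus brain ran from -0.056, without brain input 960, to 0.65. The cause was not tested. The replicate block moved 2 member calls (Fabp4 in retina and Cd36 for choroid minus brain, where 2 members were then called higher) and no other.

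Member counts moved as follows. With DESeq2 size factors 0 members were higher in positive fractions of retina over brain. With a minimum of 10 CPM, which removes Cd36, and in the joint fit of 18 libraries, 0 members were lower in retina. That joint fit, which lacks Fabp4 and Gpihbp1, called 2 members higher in choroid and 2 lower in brain. Leaving out 1 library at a time gave 2 to 4 members lower in choroid. In retina it gave 2 to 4 higher and 0 to 1 lower, and in brain 2 to 4 higher and 0 to 2 lower. It gave 1 to 2 higher for choroid minus brain. For positive fractions it gave 2 to 3 lower for choroid over retina, and 0 to 1 higher and 3 to 4 lower for retina over brain. For inputs it gave 4 to 5 higher for choroid over brain and 5 to 6 higher for choroid over retina.

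Counts over all genes moved more. With library size alone 547 were higher (1286 with TMM) and 2196 lower (1296) for choroid minus brain, and 580 higher (1141) for choroid minus retina. The joint fit called 1443 higher (2226) and 676 lower (1696) in retina, the fit of 2 tissues 1129 lower (522) for retina minus brain, and leaving out both choroid libraries 421, chosen after seeing the data, 812 higher for choroid minus brain. Without 1 library at a time, 1609 to 2575 genes were higher in choroid, 1292 to 3095 higher and 586 to 2653 lower in retina, 2014 to 4670 higher and 1005 to 4642 lower in brain, 622 to 1402 higher and 1093 to 2077 lower for choroid minus brain, and 429 to 1047 higher and 319 to 1571 lower for retina minus brain. Choroid positive libraries were the shallowest, and Mfsd2a there and Cd36 in retina and brain rest on few counts.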
